A study of Homo sapiens with 18 samples.

Results

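The nuclear genes for subunits of the respiratory chain and of ATP synthase were examined by complex in OVCAR3 cells with and without XIST knockdown, in normoxia and in hypoxia. The members were chosen by gene symbol: the NDUFA, NDUFB, NDUFC, NDUFS and NDUFV genes for complex I, the SDHA to SDHD genes for complex II, the UQCR genes and CYC1 for complex III, the COX4 to COX8 subunit genes for complex IV, and the ATP5F1, ATP5M and ATP5P genes for complex V. Symbols ending as pseudogenes, antisense or divergent transcripts were dropped, which removed 1 gene, UQCRBP1. The rule found 88 members among 28277 listed genes, with 38 in complex I, 4 in complex II, 10 in complex III, 17 in complex IV and 19 in complex V. Of these, 79 had enough reads to be tested, among 14938 genes tested in all.

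The respiratory chain sits in the inner mitochondrial membrane. Complex I takes electrons from NADH and complex II takes them from succinate, complex III passes them to cytochrome c, and complex IV hands them to oxygen. The proton gradient that complexes I, III and IV build is spent by complex V, the ATP synthase. Each complex except complex II also holds subunits encoded in mitochondrial DNA, so nuclear and mitochondrial transcripts contribute to the same machine. Cells short of oxygen are known to shift from respiration to glycolysis, and some subunits have hypoxia isoforms, of which NDUFA4L2 and COX4I2 are the textbook cases.

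OVCAR3 is an established line from a high-grade serous ovarian carcinoma. All cells carried dCas9-KRAB, a dead Cas9 fused to a transcriptional repressor, so that a single guide RNA silences the gene it targets. The 6 groups were sgCtl, sgXIST7 and sgXIST9 cells, each kept in normoxia or for 24 h at 1% O2, with 3 replicate libraries per group and 18 libraries in all. The sgCtl guide is directed at Gal4, a yeast gene that human cells lack, and sgXIST7 and sgXIST9 are separate guides against XIST. Each guide was studied in clonal cells, so that a difference between sgCtl, sgXIST7 and sgXIST9 cannot be told apart from a difference between clones. The libraries were made from total RNA after removal of ribosomal RNA.

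The libraries held 11794375 to 24906936 counts on genes (median 17629433.5), of which 0.660% to 1.13% fell on the members. XIST ranged from 242 to 867 CPM (counts relative to the TMM-scaled library size) in sgCtl normoxia and from 123 to 249 CPM in sgCtl hypoxia. It stayed at or below 0.26 CPM in the 6 sgXIST7 libraries and between 16.3 and 53.6 CPM in the 6 sgXIST9 libraries. Of 6 genes taken as a check of hypoxia (CA9, VEGFA, ADM, NDRG1, ANKRD37 and EGLN3), 5 rose in each clone. The gene that did not pass was ADM in sgCtl, where it was already at 287 CPM in normoxia against 8.14 CPM in sgXIST7 and 7.0 CPM in sgXIST9, and EGLN3 in both knockdown clones. Of 7 markers of serous carcinoma cells, PAX8, EPCAM, KRT8 and KRT18 could be tested while WT1, MUC16 and KRT7 were too low. By the chi-square per gene between libraries, hypoxia replicate 3 stood apart in sgCtl (44.6 and 77.2 from replicates 1 and 2, which differed by 23.8) and in sgXIST9 (39.4 and 84.5, against 22.2). In sgXIST7 hypoxia the closest pair was replicates 2 and 3 (22.1), with replicate 1 at 32.2 and 45.8 from them, and in sgXIST7 normoxia replicate 2 stood apart (45.6 and 49.2, against 10.5). Hypoxia replicate 3 was the highest hypoxia library for NDUFB8 and NDUFV1 in each clone, and results that rest on these 3 libraries are given with and without them.

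The promoters printed here are those of 4 members that the results turn on: ATP5MC1 and NDUFV1, which fell in each clone, and NDUFA8 and NDUFC1, which rose in 3 and in 2 clones. The sequences are RefSeq promoters of build GRCh38.p14, from 250 bases before to 50 bases after the annotated start, written 5′ to 3′ on the strand of the gene. The capitals mark matches, on either strand, to ACGTG or GCGTG (the core letters of the hypoxia response element bound by HIF), CCGGAAG (the core bound by ETS factors such as GABPA), the motif of NRF1 and CCAAT.

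ATP5MC1: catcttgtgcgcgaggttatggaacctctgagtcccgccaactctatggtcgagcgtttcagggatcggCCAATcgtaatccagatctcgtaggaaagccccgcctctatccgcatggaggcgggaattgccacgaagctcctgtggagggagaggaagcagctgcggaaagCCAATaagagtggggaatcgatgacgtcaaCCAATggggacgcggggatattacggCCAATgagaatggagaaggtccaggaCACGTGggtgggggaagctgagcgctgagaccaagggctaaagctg
NDUFV1: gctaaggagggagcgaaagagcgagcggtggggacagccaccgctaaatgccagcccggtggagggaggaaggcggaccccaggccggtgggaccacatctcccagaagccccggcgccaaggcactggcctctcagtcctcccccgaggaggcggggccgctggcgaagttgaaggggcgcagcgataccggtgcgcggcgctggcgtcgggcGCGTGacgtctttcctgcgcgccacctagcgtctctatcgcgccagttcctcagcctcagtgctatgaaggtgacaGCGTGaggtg
NDUFA8: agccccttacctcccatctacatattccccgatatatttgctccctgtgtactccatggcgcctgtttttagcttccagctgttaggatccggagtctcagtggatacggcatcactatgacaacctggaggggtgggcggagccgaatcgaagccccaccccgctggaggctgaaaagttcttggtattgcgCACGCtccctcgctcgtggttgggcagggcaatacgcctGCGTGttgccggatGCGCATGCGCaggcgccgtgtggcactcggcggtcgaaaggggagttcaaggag
NDUFC1: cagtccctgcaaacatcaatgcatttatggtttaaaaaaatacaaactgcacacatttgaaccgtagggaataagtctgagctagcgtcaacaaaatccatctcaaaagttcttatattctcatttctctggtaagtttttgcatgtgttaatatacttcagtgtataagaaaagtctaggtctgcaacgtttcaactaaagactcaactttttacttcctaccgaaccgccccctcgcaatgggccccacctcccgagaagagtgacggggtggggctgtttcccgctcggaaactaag

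The ATP5MC1 promoter (chr17:48892537-48892836, plus strand) held CCAAT 4 times and the letters ACGTG once on each strand in an overlapping palindrome just after the start site. The NDUFV1 promoter (chr11:67606686-67606985, plus strand) held GCGTG 2 times, and the NDUFA8 promoter (chr9:122159730-122160029, minus strand) held it 2 times beside an NRF1 motif. The NDUFC1 promoter (chr4:139302502-139302801, minus strand) held none of the letters searched, which says only that they are not in this window. Promoters were listed for 68 of the 88 members. ACGTG was found in 17 of these (25%) against 21.6% of all 27305 promoters, and GCGTG in 32 (47.1%) against 36.3%. CCGGAAG was found in 20 (29.4%) against 10.7% of all promoters, the NRF1 motif in 4 (5.88%) against 1.36%, and CCAAT in 24 (35.3%) against 35.7%. The members with the NRF1 motif were ATP5F1C, NDUFA8, NDUFB4 and SDHD. These are counts of letters, and no binding was measured here.

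The first comparison asked which subunits changed with hypoxia within each clone. Most of the members that changed fell. Those that fell in each clone included NDUFV1, NDUFV2 and NDUFS8 of complex I, SDHA and SDHB, CYC1 and UQCRFS1, and most of the head and part of the ring of ATP synthase. In complex IV 2 of 11 tested members fell in each clone, near the 16.7% of all genes tested that did. In sgCtl, 37 of the 79 members fell and 5 rose with hypoxia at an adjusted p under 0.05, where 25.2% of all genes tested fell and 26.1% rose. In sgXIST7, 36 members fell and 12 rose, against 29.5% of all genes falling and 29.5% rising. In sgXIST9, 40 members fell and 4 rose, against 24.8% and 30.5% of all genes. The study calls its RNA-seq replicates biological, whereas the labels do not say whether they are separate cultures, and p-values measure the spread between these libraries. All adjusted p-values are from edgeR's quasi-likelihood test with Benjamini-Hochberg adjustment over all 14938 genes tested. The median log2 fold change of the members was -0.28 in sgCtl, -0.24 in sgXIST7 and -0.34 in sgXIST9, beside medians of 0.02, 0.01 and 0.09 over all genes. Hence the typical fall was small. At the stricter thresholds of the study, an adjusted p under 0.01 with a log2 fold change beyond 1 in size, 4, 7 and 5 members fell in sgCtl, sgXIST7 and sgXIST9, against 8.49%, 12.2% and 8.58% of all genes. At these thresholds 1, 3 and 1 members rose, against 11.3%, 15.1% and 14.7% of all genes. With upper-quartile scaling, 10 members rose and 35 fell in sgXIST9, against 33.9% and 21.4% of all genes. With the sgCtl groups fitted alone, 24 members fell in sgCtl, against 21.6% of all genes. In sgCtl 2 members rose without normoxia replicate 1 or 2, against 21.6% and 22.3% of all genes. There 3 rose without hypoxia replicate 3 of sgCtl, against 27.1%. In sgXIST7 7 rose without normoxia replicate 2, against 27.7%.

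The 3 hypoxia responses share no library. Of the 79 members, 30 (38%) fell in each of the 3 clones, beside 16.7% of all genes tested. Only NDUFA4L2 and NDUFA8 rose in each of the 3 clones, which is 2.53% of the members beside 17.5% of all genes. No member rose in a clone and fell in another, which is near the 1.14% of all genes that did. The 20 members that passed in none of the 3 were 25.3% of the members, near the 22.9% of all genes. The 30 members that fell throughout comprised 15 of complex I, 2 of complex II, 3 of complex III, 2 of complex IV and 8 of complex V.

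**Figure D1:**
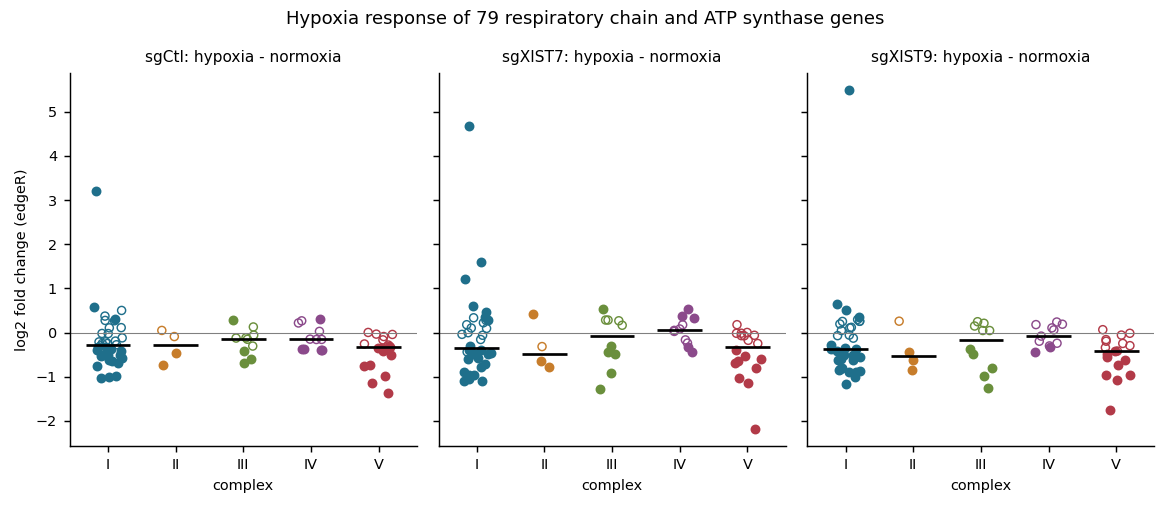
Log2 fold change of hypoxia against normoxia for the 79 tested members, by complex (x axis) in sgCtl, sgXIST7 and sgXIST9. Filled points passed an adjusted p of 0.05, open points did not, and bars are medians. Medians of complex V lie at -0.33, -0.31 and -0.42, those of complex IV at -0.15, 0.05 and -0.08, and the single point far above the rest in each panel is NDUFA4L2.

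Summed over all members, the level was 9968 ± 921 CPM (SD, n = 3) in sgCtl normoxia and 8147 ± 688 CPM in sgCtl hypoxia. In sgXIST7 the sum was 9267 ± 1128 CPM in normoxia and 7975 ± 476 CPM in hypoxia, and in sgXIST9 it was 10867 ± 128 CPM and 8658 ± 194 CPM. By complex, the hypoxia sum of complex V was 72.9%, 70.9% and 68.9% of the normoxia sum in sgCtl, sgXIST7 and sgXIST9. For complex IV these shares were 93.7%, 104% and 94.5%. Complexes I, II and III lay between them, at 81.6%, 91.2% and 82.8% for complex I, 81.0%, 79.7% and 75.3% for complex II, and 86.5%, 89.0% and 80.7% for complex III. For complexes II and V the lowest normoxia library lay above the highest hypoxia library in each clone. For complexes I, III and IV the hypoxia libraries of sgCtl and sgXIST7 overlapped those of normoxia, and those of sgXIST9 did not. In bulk RNA, fewer cells of a type and less RNA per cell cannot be told apart.

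**Figure D2:**
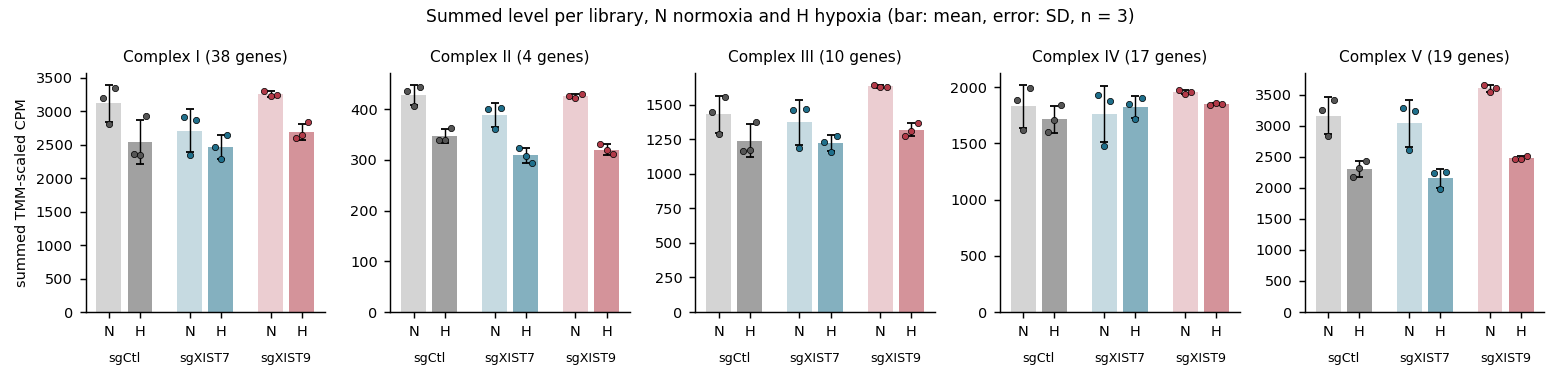
Summed TMM-scaled CPM of the members of each complex in each library (points), with the mean (bar) and SD (error bar, n = 3), for normoxia (N) and hypoxia (H) in the 3 clones. In complex V the hypoxia means were 68.9% to 72.9% of the normoxia mean of the clone, while in complex IV the hypoxia means were 93.7% to 104% of it.

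In complex I, NDUFV1, NDUFV2 and NDUFS8, which carry the flavin or iron-sulfur clusters, fell in each clone. The accessory subunits were mixed, with 11, 12 and 14 of 29 falling and 3, 7 and 4 rising in sgCtl, sgXIST7 and sgXIST9. Of all genes tested, 25.2%, 29.5% and 24.8% fell and 26.1%, 29.5% and 30.5% rose there.

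NDUFV1, which binds the flavin where NADH is oxidised, was at 107, 103 and 108 CPM in the sgCtl normoxia libraries and at 42.5, 38.5 and 78.6 CPM in hypoxia. In sgXIST7 it was at 117, 115 and 127 CPM in normoxia and 51.8, 53.2 and 64.2 CPM in hypoxia, and in sgXIST9 at 136, 138 and 132 CPM and 65.7, 70.6 and 86.8 CPM. No hypoxia library reached a normoxia library of its clone, and replicate 3 was the highest hypoxia library in each clone. The log2 fold changes were -1.0 ± 0.19 (SE, adjusted p = 0.000393) in sgCtl, -1.09 ± 0.19 (adjusted p = 0.000127) in sgXIST7 and -0.86 ± 0.19 (adjusted p = 0.00108) in sgXIST9. Without replicate 3 of the hypoxia groups the value in sgCtl was -1.39. NDUFV2, its partner in the NADH-binding module, fell by 1.02, 0.78 and 0.84 on the log2 scale, but 70.7% of the 50-base windows of its exons occur once in the genome and an antisense gene lies across it. NDUFS8, an iron-sulfur subunit, fell by 0.70, 1.10 and 1.16.

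NDUFS1, an iron-sulfur subunit and the largest of the core, moved less. Its log2 fold changes were -0.21 (adjusted p = 0.12), -0.16 (adjusted p = 0.236) and -0.28 (adjusted p = 0.0399), and the last call was lost in 5 of the 6 fits that left out a library. Among accessory subunits, NDUFB10 fell by 0.98, 1.04 and 0.89 and NDUFA9 by 0.63, 0.89 and 1.01 in the 3 clones.

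NDUFA8, an accessory subunit of the intermembrane side, was at 34.6, 28.4 and 32.5 CPM in sgCtl normoxia and at 48.3, 46.7 and 46.9 CPM in sgCtl hypoxia. In sgXIST7 it was at 29.3, 24.2 and 28.0 CPM and then at 45.2, 41.7 and 36.2 CPM, and in sgXIST9 at 35.7, 36.9 and 38 CPM and then at 45.2, 52.0 and 44.5 CPM. The groups did not overlap within any clone, and the log2 fold changes were 0.57 ± 0.11 (adjusted p = 0.000454), 0.60 ± 0.11 (adjusted p = 0.000214) and 0.36 ± 0.11 (adjusted p = 0.0117).

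NDUFB8 and NDUFC1 rose in the knockdown clones. NDUFB8 was at 72.2, 61.6 and 70.4 CPM in sgXIST7 normoxia and at 145, 194 and 283 CPM in sgXIST7 hypoxia, a log2 fold change of 1.61 ± 0.27 (adjusted p = 8.87e-05). In sgXIST9 it went from 91.9, 99.0 and 91.6 CPM to 130, 107 and 207 CPM (0.65 ± 0.27, adjusted p = 0.0483, lost in 5 of 6 fits without a library), and in sgCtl from 85.2, 77 and 90.2 CPM to 94.3, 86.2 and 178 CPM (0.50 ± 0.27, adjusted p = 0.131). The highest value in each clone was hypoxia replicate 3. Without these 3 libraries the log2 fold changes were 1.33, 0.34 and 0.10 in sgXIST7, sgXIST9 and sgCtl, the first pair still past the threshold. SEC31B, the neighbour downstream of NDUFB8 on the same strand, rose by 1.97, 3.0 and 2.78 in sgCtl, sgXIST7 and sgXIST9, and its part in the NDUFB8 counts was not tested.

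NDUFC1 was at 64.5, 51.1 and 64.1 CPM in sgXIST7 normoxia and at 124, 121 and 174 CPM in hypoxia, a log2 fold change of 1.22 ± 0.16 (adjusted p = 7.54e-06). It rose by 0.52 ± 0.16 in sgXIST9 (adjusted p = 0.0126), and the change in sgCtl was 0.37 ± 0.16 (adjusted p = 0.0656). NDUFC1 shares 1047 bases with NAA15 on the other strand, and NAA15 fell by 1.12, 1.16 and 1.29 in the 3 clones.

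**Figure D3:**
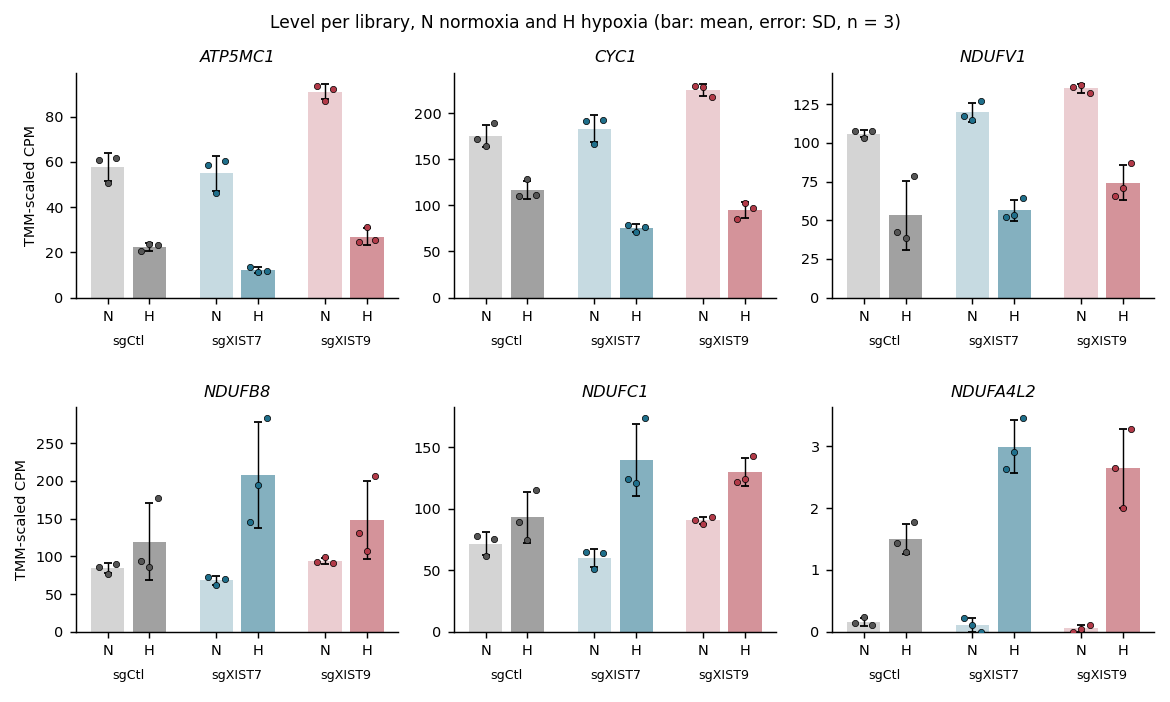
TMM-scaled CPM (y axis) of 6 members in each library (points), with mean (bar) and SD (error bar, n = 3), in normoxia (N) and hypoxia (H). ATP5MC1, CYC1 and NDUFV1 are lower in every hypoxia library than in the normoxia libraries of the same clone, NDUFB8 is highest in the third hypoxia library of each clone, and NDUFA4L2 stays below 4 CPM.

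NDUFA4L2 was the member with the largest fold change and also among the lowest tested. This paralog of NDUFA4 is a well-known HIF target, and NDUFA4 itself, although named for complex I, is now placed in complex IV. NDUFA4L2 (chr12:57234903-57240692, minus strand) had 2, 3 and 2 counts in the sgCtl normoxia libraries and 23, 26 and 20 counts in sgCtl hypoxia. It had 5, 2 and 0 counts in sgXIST7 normoxia and 55, 64 and 40 in hypoxia, and 0, 1 and 2 counts in sgXIST9 normoxia and 58, 44 and 52 in hypoxia. All hypoxia libraries thus exceeded all normoxia libraries. The ratio of summed counts per scaled depth was 9.4 in sgCtl (95% interval 4.33 to 24.3), 26.7 in sgXIST7 (12.6 to 67.4) and 50.1 in sgXIST9 (16.8 to 245), where the intervals cover counting error only. The adjusted p was 0.000162, 1.04e-06 and 1.02e-06. In hypoxia the level was 1.5 ± 0.25 CPM in sgCtl, 2.99 ± 0.42 CPM in sgXIST7 and 2.64 ± 0.64 CPM in sgXIST9. The ratio of sgXIST7 to sgCtl in hypoxia was 2.0 by counting (1.5 to 2.70), but the log2 difference of 1.0 ± 0.39 did not pass (adjusted p = 0.0507), nor did that of sgXIST9, 0.82 ± 0.39 (adjusted p = 0.129). The end of NDUFA4L2 overlaps SHMT2 on the other strand by 33 bases, and no change of SHMT2 passed the test (log2 fold changes 0.31, 0.12 and -0.12).

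NDUFA4 was at 206 ± 22.3 CPM in sgCtl normoxia and 174 ± 14.9 CPM in sgCtl hypoxia. It passed in no hypoxia response, at -0.25 ± 0.15 in sgCtl (adjusted p = 0.178), -0.00 ± 0.15 in sgXIST7 (adjusted p = 0.992) and -0.06 ± 0.15 in sgXIST9 (adjusted p = 0.772).

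In complex II the catalytic pair fell and the membrane anchors did not follow in every clone. SDHA, the flavin subunit that oxidises succinate, was at 127, 129 and 135 CPM in sgCtl normoxia and at 69.4, 74.7 and 92.1 CPM in hypoxia. It fell by 0.73 ± 0.11 (adjusted p = 3.84e-05), 0.77 ± 0.11 (adjusted p = 1.33e-05) and 0.61 ± 0.11 (adjusted p = 0.000162) in sgCtl, sgXIST7 and sgXIST9. SDHB, the iron-sulfur subunit, was at 96.2, 96.2 and 102 CPM in sgCtl normoxia and at 71.6, 74.0 and 69.2 CPM in hypoxia, and fell by 0.45 ± 0.08, 0.65 ± 0.08 and 0.84 ± 0.08 in the 3 clones. SDHC, an anchor in the membrane, had log2 fold changes of 0.05 (adjusted p = 0.743), 0.42 (adjusted p = 0.00477) and 0.26 (adjusted p = 0.0631), so that it rose in sgXIST7. SDHD, the other anchor, had values of -0.09 (adjusted p = 0.648), -0.32 (adjusted p = 0.0816) and -0.45 (adjusted p = 0.0186) and fell in sgXIST9. Of the exon windows of SDHA and SDHD, 73.2% and 54.0% occur once in the genome, so reads of their copies may be shared.

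In complex III, CYC1 and UQCRFS1, which carry the heme and the iron-sulfur cluster of the electron path, fell in every clone. CYC1 was at 172, 165 and 189 CPM in sgCtl normoxia and at 110, 128 and 112 CPM in sgCtl hypoxia. It was at 191, 166 and 192 CPM in sgXIST7 normoxia and at 79.2, 71.1 and 76.4 CPM in hypoxia, and at 229, 228 and 217 CPM in sgXIST9 normoxia and at 85.5, 103 and 96.8 CPM in hypoxia. In normoxia sgXIST7 overlapped sgCtl and sgXIST9 lay above it, and in hypoxia each library of the knockdown clones lay below every sgCtl library. The log2 fold changes were -0.59 ± 0.10 (adjusted p = 0.000131), -1.28 ± 0.10 (adjusted p = 1.99e-08) and -1.24 ± 0.10 (adjusted p = 3.61e-08). UQCRFS1 fell by 0.70, 0.92 and 0.98 in the 3 clones. The core protein UQCRC1 fell less, by 0.31 in sgXIST7 (lost in 4 of 6 fits without a library) and 0.37 in sgXIST9 (lost in 2 of 6), and had -0.15 in sgCtl (adjusted p = 0.307). The small subunit UQCR11 rose by 0.29 in sgCtl (adjusted p = 0.0483, lost in 5 of 6 fits without a library) and by 0.54 in sgXIST7 (adjusted p = 0.000677).

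Complex IV had 11 tested members, of which 4, 2 and 2 fell and 1, 3 and 0 rose in sgCtl, sgXIST7 and sgXIST9. Over all genes tested, 25.2%, 29.5% and 24.8% fell and 26.1%, 29.5% and 30.5% rose in these clones. COX5A fell by 0.38, 0.33 and 0.32, and COX8A by 0.38, 0.44 and 0.44, which made them the complex IV members that passed in each clone. COX8A was at 190, 173 and 209 CPM in sgCtl normoxia and at 142, 134 and 163 CPM in hypoxia. COX4I1, the regulatory subunit at the entry of the assembly line, was at 320, 285 and 333 CPM in sgCtl normoxia and at 252, 270 and 320 CPM in hypoxia, groups that overlapped. Hypoxia moved it by -0.16 in sgCtl (adjusted p = 0.281), 0.03 in sgXIST7 (adjusted p = 0.854) and -0.24 in sgXIST9 (adjusted p = 0.0915) on the log2 scale. COX4I2, its hypoxia isoform, had 1 count in sgXIST7 normoxia replicate 3, 1 count in sgXIST9 hypoxia replicate 1 and 0 in the other 16 libraries. A count of 0 allows up to 3 counts, which is 0.130 to 0.266 CPM in these libraries, so COX4I2 was not detectable above that level in normoxia or in hypoxia.

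For the other paralogs of complex IV, the widespread form was the one counted. COX6A2, COX7A1, COX7B2 and COX8C, which are known from muscle or testis, had 0 counts in all 18 libraries, and COX6B2 had at most 3. COX6A1 rose by 0.32 in sgCtl (lost in 4 of 6 fits without a library) and 0.34 in sgXIST7 (lost in 2 of 6) and had 0.19 in sgXIST9 (adjusted p = 0.197), although 37.7% of its exon windows are unique. COX6B1 and COX7A2 passed in no clone, with log2 fold changes from -0.19 to 0.05, and COX7A2L rose by 0.37 in sgXIST7. COX7B fell by 0.40 in sgCtl (adjusted p = 0.0185, lost in 4 of 6 fits without a library). COX5B rose by 0.54 in sgXIST7 (adjusted p = 0.00502) and had 0.22 and 0.24 in sgCtl and sgXIST9.

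In complex V the F1 head fell together with 2 of the 3 genes of the membrane ring. Of the 5 subunits of F1, ATP5F1A, ATP5F1B, ATP5F1C and ATP5F1D fell in each clone and ATP5F1E, which a read-through gene covers on the same strand, in none. ATP5F1A, a subunit of the catalytic hexamer, was at 355, 327 and 379 CPM in sgCtl normoxia and at 159, 164 and 217 CPM in hypoxia, and fell by 0.98 ± 0.12 (adjusted p = 3.74e-06), 1.02 ± 0.12 (adjusted p = 1.27e-06) and 0.97 ± 0.12 (adjusted p = 2.97e-06). ATP5F1B, its catalytic partner, fell by 0.35, 0.59 and 0.56, which is less than ATP5F1A in each clone although the difference between the genes was not tested. ATP5F1D, of the central stalk, fell by 1.14, 1.15 and 1.08.

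The c ring turns as protons pass and is built from 1 mature protein that 3 genes encode. ATP5MC1 (chr17:48892787-48895870, plus strand) was at 60.8, 50.6 and 61.9 CPM in sgCtl normoxia and at 20.4, 23.6 and 23.2 CPM in sgCtl hypoxia. In sgXIST7 it was at 58.6, 46.1 and 60.3 CPM and then at 13.8, 11.1 and 11.7 CPM, and in sgXIST9 at 93.6, 87.1 and 92.4 CPM and then at 24.4, 31.1 and 25.4 CPM. All hypoxia libraries lay below all normoxia libraries. The log2 fold changes were -1.37 ± 0.13 (adjusted p = 4.32e-07), -2.17 ± 0.14 (adjusted p = 1.97e-09) and -1.75 ± 0.13 (adjusted p = 1.72e-08), the largest falls of any member in each clone. ATP5MC3 was at 299, 272 and 323 CPM in sgCtl normoxia and at 171, 193 and 173 CPM in hypoxia, and fell by 0.74, 0.80 and 0.95. ATP5MC2 was at 122, 112 and 138 CPM and then at 108, 92.8 and 149 CPM, and passed in no clone, with values of -0.09, -0.06 and -0.01 (adjusted p = 0.631, 0.736 and 0.941). An uncharacterised antisense gene, LOC105371814, covers ATP5MC1, and its reads were not tested apart.

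**Figure D4:**
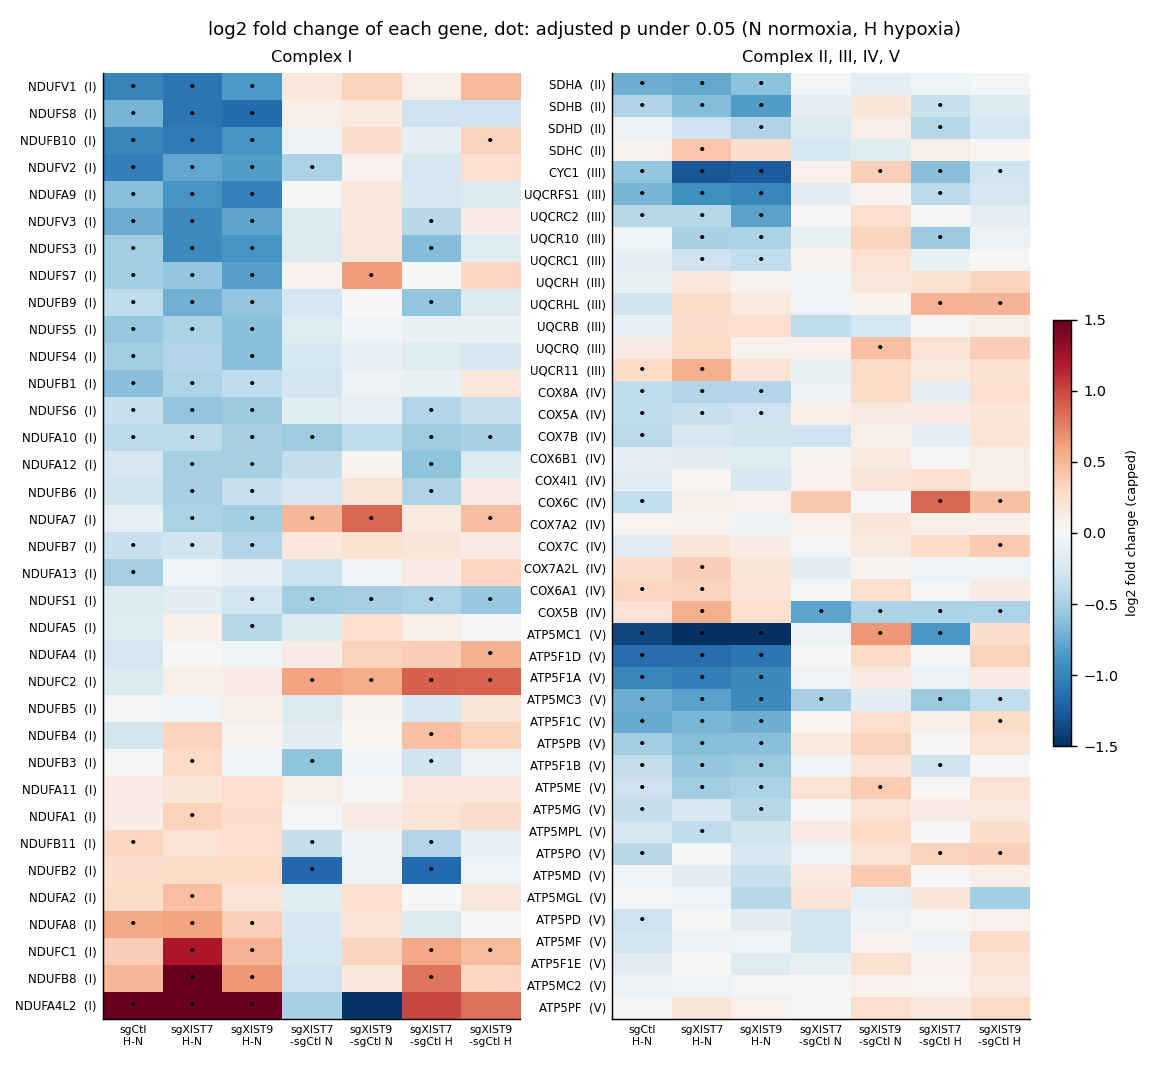
Log2 fold change (colour, capped at 1.5 in either direction) of tested members in rows, for the 3 hypoxia responses and the 4 comparisons of a knockdown clone with sgCtl in columns. A dot marks an adjusted p under 0.05. In the first 3 columns ATP5MC1, ATP5F1D, ATP5F1A, CYC1 and NDUFV1 are lower with a dot in each clone, whereas NDUFB2 stands out in the columns that compare sgXIST7 with sgCtl.

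The second comparison asked whether the hypoxia response of the members differed between the knockdown clones and sgCtl. The difference passed for 3 members in sgXIST7, 1 higher and 2 lower, where 4.60% and 4.79% of all genes passed in these directions. In sgXIST9 it passed for 1 member, which was lower, where 3.17% of all genes were higher and 2.10% lower. The interaction called 0 members at the thresholds of the study in either clone, against 0.904% of all genes higher and 0.616% lower in sgXIST7 and 0.663% and 0.348% in sgXIST9. By DESeq2, 3 were higher and 2 lower in sgXIST7, against 7.72% and 8.79% of all genes. In sgXIST9 DESeq2 gave 0 higher and 2 lower, against 4.8% and 6.19%. These shares of the members are near or below the background. At an unadjusted p under 0.05, 8 were higher and 3 lower in sgXIST7 and 2 and 4 in sgXIST9. No share of all genes was computed at that threshold. CYC1 fell more in both clones, by 0.69 ± 0.14 (adjusted p = 0.00847) in sgXIST7 and 0.66 ± 0.14 (adjusted p = 0.0128) in sgXIST9, and the sgCtl libraries are shared by these 2 tests. ATP5MC1 fell more in sgXIST7 by 0.81 ± 0.19 (adjusted p = 0.0158), and its difference in sgXIST9 was -0.39. NDUFC1 rose more in sgXIST7, by 0.84 ± 0.23 (adjusted p = 0.0321), a call lost in 7 of the 12 fits without a library. For NDUFB8 the difference in sgXIST7 was 1.10 ± 0.38 (adjusted p = 0.0756), and it passed without the 3 hypoxia libraries of replicate 3, at 1.23. Without these libraries 8 of the 79 members differed in sgXIST7, where 29.5% of all genes did, and 5 in sgXIST9, where 20.7% did. Without hypoxia replicate 3 of sgCtl alone, 10 and 4 members differed, against 27% and 18.3% of all genes. Without hypoxia replicate 1 of sgXIST7, 5 differed in sgXIST7, against 12.7%.

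The third comparison set each knockdown clone against sgCtl at the same oxygen level. The sgXIST7 and sgXIST9 comparisons share the sgCtl libraries, so their values are set side by side. In normoxia, 2 members were higher and 9 lower in sgXIST7, against 11.1% and 10.5% of all genes, and 7 were higher and 2 lower in sgXIST9, against 10.5% and 11%. In hypoxia, 7 were higher and 21 lower in sgXIST7, against 20.7% and 21.6% of all genes, and 10 were higher and 5 lower in sgXIST9, against 15.5% and 14.1%. The counts depended on the libraries and on the samples in the fit. When the groups compared were fitted alone, 35 members were higher and 6 lower in sgXIST9 normoxia, against 23.3% and 22.9% of all genes. In hypoxia, 12 members differed in sgXIST7 in such fits, against 23.5% of all genes, and 4 in sgXIST9, against 12.8%. Without hypoxia replicate 3 of each clone 24 members differed in sgXIST9 hypoxia, against 38.9% of all genes. The count there was 27 without hypoxia replicate 3 of sgCtl alone, against 40.9%. It was 6 to 8 when any 1 of the other libraries of that comparison was left out, against 21.7% to 28.7%. In sgXIST9 normoxia the count was 5 without replicate 1 or 2 of either group, against 15.3% to 16.5%. In sgXIST7 normoxia it was 7 without replicate 3 of either group, against 15% and 16.4%. The fibroblast gene COL1A2 was at 0.27 CPM in sgCtl normoxia, 96.7 CPM in sgXIST7 and 49.2 CPM in sgXIST9, and the 6 markers of other cell types, of which CD68, COL1A1 and COL1A2 could be tested, summed to 25.1 to 30.1 CPM, 99.4 to 156 CPM and 70.8 to 116 CPM over the libraries. Their part in these clone differences was not tested.

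Among members past the test, the largest difference from sgCtl was that of NDUFB2, an accessory subunit of complex I (chr7:140696708-140706643, plus strand, with an antisense gene over 370 of its bases). It was at 64.7, 50.7 and 63.5 CPM in sgCtl normoxia, at 28.1, 21.9 and 29.1 CPM in sgXIST7 normoxia and at 54.7, 54.8 and 58.5 CPM in sgXIST9 normoxia. In hypoxia it was at 69.2, 65.9 and 80.8 CPM in sgCtl, 34.0, 29 and 33.2 CPM in sgXIST7 and 65.7, 72.7 and 67.9 CPM in sgXIST9. Every sgXIST7 library lay below every library of the other clones at both oxygen levels. The log2 difference of sgXIST7 from sgCtl was -1.18 ± 0.13 (adjusted p = 3.04e-06) in normoxia and -1.16 ± 0.13 (adjusted p = 2.48e-06) in hypoxia. It was the only member past the thresholds of the study in a comparison with sgCtl. At these thresholds 4.67% of all genes were higher and 3.09% lower in sgXIST7 normoxia, 7.83% and 6.19% in sgXIST7 hypoxia, 3.93% and 3.77% in sgXIST9 normoxia, and 6.14% and 3.39% in sgXIST9 hypoxia. In sgXIST9, 0 members passed them by edgeR. At any fold 19 and 17 were higher and 3 and 9 lower at an unadjusted p under 0.05 in normoxia and hypoxia. The share of all genes at an unadjusted p was not computed.

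The genes around NDUFB2 were lower as well. All 12 tested genes within 1 Mb of it had a negative log2 difference in sgXIST7 normoxia, with a median of -0.98, and 6 of them passed the test. From 125 Mb to the end of chromosome 7, 164 tested genes had a median of -0.86 in sgXIST7 normoxia, with 146 of them negative, and a median of 0.03 in sgXIST9. The 557 genes before 125 Mb had a median of 0.06 in sgXIST7. The position of 125 Mb was set after the values were seen, as the start of the run of 5 Mb bins up to the chromosome end with a median below -0.5.

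Chromosome 2 held 6 tested members, and 5 of the 9 members that were lower in sgXIST7 normoxia were among them. These were COX5B, NDUFB3, NDUFA10 (lost in 4 of 6 fits without a library), NDUFS1 and ATP5MC3. COX5B, a subunit of complex IV that binds zinc, was at 229, 198 and 249 CPM in sgCtl normoxia, at 146, 110 and 135 CPM in sgXIST7 and at 165, 162 and 159 CPM in sgXIST9. It was lower by 0.79 ± 0.15 (adjusted p = 0.000816) in sgXIST7 and 0.48 ± 0.15 (adjusted p = 0.027) in sgXIST9, the latter lost in 5 of 6 fits without a library. NDUFS1 had log2 differences of -0.52 ± 0.11 (adjusted p = 0.00218) and -0.50 ± 0.11 (adjusted p = 0.00308). The 997 tested genes of chromosome 2 had medians of -0.31 in sgXIST7 and -0.33 in sgXIST9 normoxia, and 68.8% and 71.7% of them were negative. The 6 members had medians of -0.52 and -0.27 on the same scale, and NDUFS1 and COX5B were the members lower in sgXIST9 normoxia.

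Over the 75 members with at least 5 tested neighbours within 1 Mb, the log2 difference of the member and the median of its neighbours had a Pearson r of 0.61 (Spearman's rho 0.48) in sgXIST7 against sgCtl in normoxia. Without NDUFB2 the Pearson r was 0.51. In sgXIST9 against sgCtl it was 0.33 (rho 0.24), whereas in the hypoxia responses it was -0.06 in sgCtl, 0.01 in sgXIST7 and -0.06 in sgXIST9. These are descriptions across genes, some of which share neighbours, and genes are not independent replicates. Why neighbouring genes differed together between the clones was not tested.

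**Figure D5:**
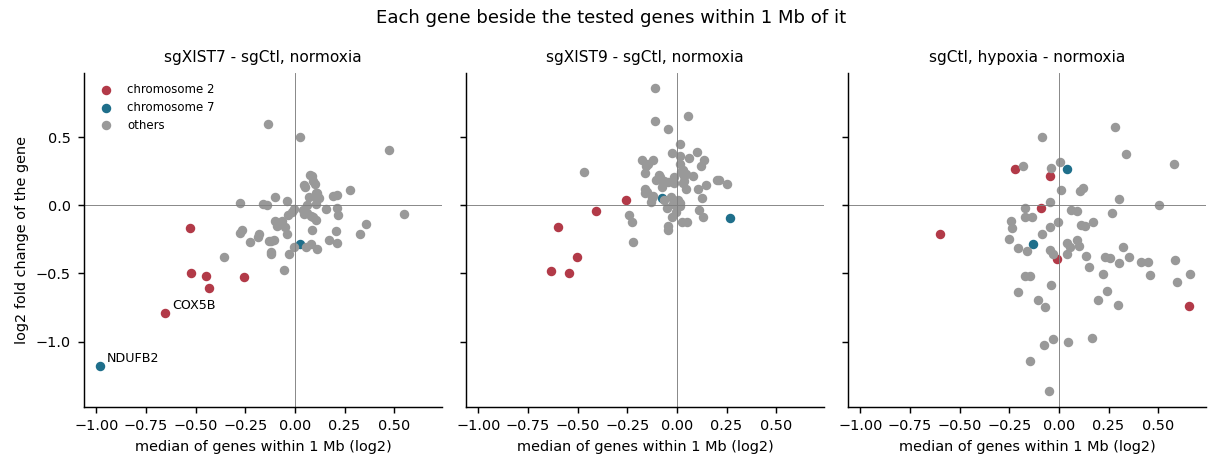
Log2 fold change of each member (y axis) against the median log2 fold change of the tested genes within 1 Mb of it (x axis) for sgXIST7 and sgXIST9 against sgCtl in normoxia and for hypoxia in sgCtl. Each point is a member with at least 5 such neighbours, NDUFA4L2 is left out of the plot, and members on chromosomes 2 and 7 are coloured. In sgXIST7 the members of chromosome 2 and NDUFB2 lie low on both axes.

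Some clone differences were not matched by the neighbours. NDUFC2, a small subunit of the membrane arm, was higher by 0.60 and 0.90 in sgXIST7 and by 0.56 and 0.89 in sgXIST9, in normoxia and hypoxia respectively (each normoxia call was lost in 2 of 6 fits without a library), while its 15 neighbours had a median of -0.13 in sgXIST7 normoxia and -0.05 in sgXIST9 normoxia. A read-through gene, NDUFC2-KCTD14, covers NDUFC2 on the same strand, so the counting could split its reads. NDUFA7 was higher in normoxia by 0.50 ± 0.14 in sgXIST7 (lost in 3 of 6 such fits) and 0.86 ± 0.14 in sgXIST9, and ATP5MC1 was higher by 0.66 ± 0.13 in sgXIST9 (adjusted p = 0.00121) but not called in sgXIST7, at -0.07. COX6C, by contrast, was higher by 0.86 ± 0.15 in sgXIST7 hypoxia (adjusted p = 0.000292) and had 0.41 in normoxia (adjusted p = 0.0666), where its 10 neighbours had a median of 0.47.

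Of the members, NDUFA1, NDUFB11 and COX7B lie on chromosome X, from which XIST is made. In normoxia their log2 differences from sgCtl were -0.02, -0.36 and -0.31 in sgXIST7 and 0.12, -0.07 and 0.10 in sgXIST9. NDUFB11 passed in sgXIST7 (adjusted p = 0.035, lost in 4 of 6 fits without a library), and none passed in sgXIST9. In hypoxia NDUFB11 was lower in sgXIST7 by 0.44, a call lost in 0 of 6 such fits, and 0 passed in sgXIST9. NDUFB11 was at 71.9, 63.0 and 74.7 CPM in sgCtl normoxia and at 60.1, 46.3 and 57.2 CPM in sgXIST7 normoxia.

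The knockdown clones were also compared with each other, on libraries that do not include sgCtl. In normoxia 11 members were lower and 0 higher in sgXIST7 than in sgXIST9 by edgeR, against 3.66% and 5.22% of all genes. In hypoxia 13 were lower and 0 higher, against 9.21% and 8.81%. At an unadjusted p under 0.05, 31 members were lower and 1 higher in normoxia and 21 lower and 1 higher in hypoxia. The share of all genes at that unadjusted threshold was not computed. By DESeq2, 21 were lower and 0 higher in normoxia, against 4.82% and 5.62% of all genes. In hypoxia 13 were lower and 1 higher by DESeq2, against 8.97% and 11.1%. In fits of these clones alone, 23 differed in normoxia, against 19.3% of all genes, and 2 in hypoxia, against 7.98%. In normoxia 5 differed without sgXIST7 replicate 2 or 3, against 6.34% and 6.55% of all genes. There 4 differed when any 1 of the sgXIST9 replicates was left out, against 5.53% to 5.72%. In hypoxia 5 differed without sgXIST7 replicate 2 or 3 or sgXIST9 replicate 2, against 10.1%, 10.2% and 10.9%. At the thresholds of the study 1 and 2 were lower and 0 higher, against 1.31% and 2.4% of all genes lower and 2.09% and 2.06% higher in normoxia and hypoxia. Among members past the test, those that differed most were NDUFB2, with -1.08 ± 0.13 in normoxia and -1.10 ± 0.13 in hypoxia, and ATP5MC1, with -0.73 ± 0.13 (adjusted p = 0.00111) in normoxia and -1.14 ± 0.14 (adjusted p = 1.8e-05) in hypoxia. ATP5MC1 was at 93.6, 87.1 and 92.4 CPM in sgXIST9 normoxia against 58.6, 46.1 and 60.3 CPM in sgXIST7 normoxia, so that the clones did not overlap. Its 38 neighbours had a median of -0.16 in hypoxia, where 10 of them were lower and 2 higher past the test. Those lower were IGF2BP1, at -1.10, and HOXB genes, among them HOXB8, at -2.81. UBE2Z, SNF8 and CALCOCO2 start closer to ATP5MC1 than these, and their values of -0.006, 0.016 and -0.042 did not pass. NDUFA4L2, with few counts in normoxia, had a log2 difference of 0.98 ± 0.89 there (adjusted p = 0.585).

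Coordinates of genes are those of the deposited table, on hg38. Levels between genes were compared per kilobase of the gene's listed exons. In sgCtl normoxia the median was 236 CPM per kilobase for complex IV, 96.8 for complex V, 84.0 for complex III, 63.2 for complex I and 59.2 for complex II. ATP5F1B was highest at 524 ± 41.6 CPM per kilobase (SD, n = 3), followed by ATP5ME at 410.1 ± 56.4, COX8A at 386 ± 36.7, COX7C at 370.5 ± 45.3, NDUFS5 at 357 ± 40.4 and UQCRH at 354 ± 48.5. From ATP5ME to UQCRH, neighbours in this order differed by less than their SDs. In sgXIST9 hypoxia ATP5F1B ranked 3 and COX7C ranked 1. SDHC was among the lowest, at 6.71 CPM per kilobase, with 13474 bases of listed exons against 1011 for SDHB and 2790 for SDHA. A long listed exon length lowers these levels, and which exons the cells use was not tested. The order of the complexes and genes rests on the same lengths.

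The remaining members could not be followed. NDUFA3 and NDUFA6 had almost no counts (at most 5 for NDUFA6, and 0 to 2 for NDUFA3 except 43 in sgCtl normoxia replicate 2 and 68 in sgXIST9 hypoxia replicate 2). Their exons are listed on alternate contigs as well. None of the 50-base windows of either gene was unique once these contigs were included, against 96.2% and 100% on the main chromosomes. Among tested members, NDUFS1, NDUFS3 and UQCRC2 also have exons listed elsewhere. Their shares of unique windows were the same with the other contigs included. ATP5MF-PTCD1, a read-through gene, had 1 count in all. None of the 13 subunits encoded in mitochondrial DNA is among the genes analysed here.

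Other genes of the pathway were read from lists. Of 48 assembly factors, which build the complexes, 16, 23 and 24 fell with hypoxia in sgCtl, sgXIST7 and sgXIST9 and 6, 8 and 3 rose, with median log2 fold changes of -0.21, -0.45 and -0.41. Over all genes tested, 25.2%, 29.5% and 24.8% fell and 26.1%, 29.5% and 30.5% rose in these clones, which is the background for this and the following lists. COX18, which inserts a complex IV subunit into the membrane, fell by 1.86, 1.66 and 1.78, and COX11, a copper chaperone of complex IV, by 1.31, 1.41 and 1.44. NUBPL and FOXRED1, assembly factors of complex I, fell by 1.40, 1.46 and 1.53 and by 1.23, 1.71 and 1.56. COX20, a chaperone of a complex IV subunit, rose by 0.91, 1.62 and 0.80. Of 4 further nuclear subunits or carriers, 1, 3 and 3 fell and 0, 1 and 0 rose. CYCS, cytochrome c itself, had -0.09 in sgCtl and fell by 0.42 in sgXIST7 and 1.02 in sgXIST9.

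Of 10 tested regulators of mitochondrial genes, 4, 5 and 7 fell and 1 rose in each clone. PPARGC1B, a coactivator of mitochondrial biogenesis, fell by 1.64, 3.36 and 2.57, and GABPA, the ETS factor of many respiratory promoters, rose by 0.50, 0.76 and 0.51. Of 10 genes that link HIF to respiration, 6 rose in each clone and 1, 3 and 2 fell. PDK1, which keeps pyruvate out of the citric acid cycle, rose by 3.47, 2.88 and 2.86, LDHA, which makes lactate, by 1.57, 1.46 and 1.54, and LONP1, the protease known to remove COX4I1, by 1.32, 1.60 and 1.18. BNIP3, a receptor for mitophagy, rose by 3.50, 3.44 and 3.10. HIGD1A, a small protein bound to the respiratory chain, fell by 0.94, 0.90 and 1.0. Of 7 tested genes of general mitochondrial content, 5, 4 and 5 fell and 0, 1 and 0 rose, among them CS, the citrate synthase, by 1.06, 1.44 and 1.48.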

How the data were processed

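Per the methods of the study, stranded total RNA libraries went through Trimmomatic for trimming, HISAT2 for alignment (hg38) and featureCounts for gene counts, and the authors deposited 1 table of raw counts, with no normalization. Versions and the settings for strand and multimapping reads are not given in the sources used here. Of 28279 rows, 2 that were damaged were left out. The authors tested with DESeq2.

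Here the deposited counts were tested with edgeR 4.0.16 (R 4.3.3): a quasi-likelihood fit over all 6 groups, TMM scaling, a filter of at least 10 counts (15 in total) by filterByExpr, and Benjamini-Hochberg adjustment over 14938 genes. "Rose" and "fell" mean an adjusted p under 0.05. CPM used TMM-scaled library sizes. With 3 libraries a group, the smallest p of an exact permutation test is 0.1. The fits were also run on simulated counts with known changes, drawn independently for each library. Those counts held no outlying replicates, so they cannot show how the fits handle them. Replicate pairs of a group differed by more than sampling noise (chi-square per gene 4.16 to 84.5). Intervals and the floor of 3 counts cover counting error only. The rule for named genes took members past the thresholds of the study, the isoform and paralog groups, the SDH genes, core catalytic subunits, and the largest call in each direction per complex and hypoxia response and per clone comparison. Other members were named for their function, position or level after their values were seen, among them NDUFA8 and COX6C.

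The members and lists were chosen with earlier results of these data known. The values for chromosomes 2 and 7 and the neighbour medians were added after seeing the data. Numbers shared between groups were checked as pairs by the correlation of deviations from the group means. All 3 pairs exceeded 0.1 in sgXIST7 against sgCtl in normoxia (0.12, 0.34 and 0.17) and in sgXIST9 against sgCtl in hypoxia (0.18, 0.50 and 0.55). Alternatives were upper-quartile scaling, no filter, DESeq2 1.42.0, a replicate block, fits of the compared groups alone, and leaving out libraries. The values of 1 member are not reported here, and the heat map leaves it out.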

Additional observations from a re-analysis of the deposited data

Results flagged for a closer look

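The hypoxia response of 3 members differed between a knockdown clone and sgCtl by a test of the difference itself (edgeR's interaction contrast, adjusted over all genes). Of the 79 members, 3 differed in sgXIST7 and 1 in sgXIST9, below the 9.39% and 5.27% of all genes that did. CYC1 fell more than in sgCtl in sgXIST7, with a log2 difference of -0.69 (adjusted p = 0.00847), and in sgXIST9, with -0.66 (adjusted p = 0.0128), and neither call was lost when any library was left out. ATP5MC1 fell more in sgXIST7, with -0.81 (adjusted p = 0.0158), and the call was lost in 1 of 12 such fits. NDUFC1 rose more in sgXIST7, with 0.84 (adjusted p = 0.0321), and the call was lost in 7 of 12. Each clone carries 1 guide, so guide and clone cannot be told apart in these differences.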

How the results depend on the processing

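No call on a member changed direction under any alternative run. Of 225 calls on members, 225 held with the replicate block, 217 with DESeq2, 213 with upper-quartile scaling, 195 with no filter and 165 when only the compared groups were fitted, and 182 of 194 held without replicate 3 of the hypoxia groups. The counts moved more than the calls, and the cause was not tested. The members that rose in sgCtl numbered 8 with upper-quartile scaling, 8 with the replicate block, 2 with no filter, 3 in the fit of the compared groups and 3 without hypoxia replicate 3, against 5, and those that fell numbered 24 in the fit of the compared groups, against 37. Over all genes, 27.3%, 27.5%, 16.3%, 22.8% and 29.9% rose in these runs, and 21.6% fell in the fit of the compared groups. In sgXIST9, 10, 8, 8 and 7 rose with upper-quartile scaling, the block, the compared groups and without hypoxia replicate 3, against 4. Of all genes, 33.9%, 31.8%, 30.6% and 33.5% rose in these runs. With the compared groups alone, 12 members differed between sgXIST7 and sgCtl in hypoxia (28 otherwise), 41 and 4 between sgXIST9 and sgCtl in normoxia and hypoxia (9 and 15), and 23 and 2 between sgXIST7 and sgXIST9 (11 and 13). Of all genes, 23.5%, 46.1%, 12.8%, 19.3% and 7.98% differed in these fits. The replicate block gave 14 for sgXIST9 in normoxia, 17 for sgXIST7 against sgXIST9 in normoxia and 6 for the difference in response of sgXIST7, against 24.7%, 11.1% and 14.5% of all genes. DESeq2 gave 14 for sgXIST9 in normoxia, 21 for sgXIST7 against sgXIST9 in normoxia, and 5 and 2 for the differences in response. Of all genes, 20.9%, 10.4%, 16.5% and 11% passed there. No filter gave 7 for sgXIST7 against sgXIST9 in hypoxia, against 10.1% of all genes. Without hypoxia replicate 3, 24 members differed between sgXIST9 and sgCtl in hypoxia, and 8 and 5 differed in response, against 38.9%, 29.5% and 20.7%.

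Leaving out 1 library at a time, 2 to 4 members rose and 25 to 40 fell in sgCtl, 7 to 13 rose and 29 to 39 fell in sgXIST7, and 3 to 5 rose and 34 to 38 fell in sgXIST9. Over all genes, 21.6% to 27.1% rose and 20.8% to 26.1% fell in sgCtl in these fits. In sgXIST7 26.1% to 28.4% rose and 25.2% to 28% fell, and in sgXIST9 25.8% to 29.2% and 20.9% to 22.8%. In normoxia and hypoxia, 7 to 9 and 19 to 33 differed between sgXIST7 and sgCtl, 5 to 8 and 6 to 27 between sgXIST9 and sgCtl, and 4 to 11 and 5 to 12 between sgXIST7 and sgXIST9. Of all genes, 15% to 17.8% and 31.6% to 52.2% differed for sgXIST7 and 15.3% to 16.5% and 21.7% to 40.9% for sgXIST9. Between the knockdown clones these shares were 5.53% to 7.19% and 10.1% to 23.5%. The difference in response held for 2 to 10 members in sgXIST7 and 1 to 4 in sgXIST9, against 4.27% to 27% and 2.45% to 18.3% of all genes. Without hypoxia replicate 3 of sgCtl alone, 27 members differed between sgXIST9 and sgCtl in hypoxia and 10 and 4 differed in response, against 40.9%, 27% and 18.3%. The count in sgXIST9 hypoxia was 6 to 8 without any other library of that comparison, and that in sgXIST9 normoxia was 5 without replicate 1 or 2 of either group. In sgCtl, 2 rose without normoxia replicate 1 or 2 and 3 without hypoxia replicate 3, and in sgXIST7, 7 rose without normoxia replicate 2. For sgXIST7 against sgCtl in normoxia the count was 7 without replicate 3 of either group, and 5 differed in response without hypoxia replicate 1 of sgXIST7. Between sgXIST7 and sgXIST9, 5 differed in normoxia without sgXIST7 replicate 2 or 3 and 4 without any sgXIST9 replicate, and 5 in hypoxia without sgXIST7 replicate 2 or 3 or sgXIST9 replicate 2. Subunits under 0.130 to 0.266 CPM were below what these libraries can show.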
